A study of Mus musculus with 6 samples.

Results

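The Zfp genes are the mouse genes whose symbol begins with Zfp and a number, most of which encode zinc finger proteins. The members described here were the genes with such a symbol and a mean of at least 1 FPKM over the 6 libraries, FPKM being read number scaled for gene length and library depth. They were thus chosen by their measured level, whatever the difference between the groups. Such a symbol was carried by 416 of the 54532 genes deposited, and 236 of these were members. The other 180 had a mean below 1. The nearest members inside that limit were Zfp593 at 1.04 FPKM and Zfp691 at 1.06, and the nearest genes outside it were Zfp963 at 0.999 and Zfp296 at 0.997. The same limit left 11652 genes of all kinds to be tested. Of the members 233 were protein-coding genes with a coding sequence, and the other 3 were the pseudogenes Zfp862-ps and Zfp422-ps and the antisense gene Zfp335os.

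RNA was sequenced from cells labelled MIN6, a mouse insulinoma line used as a model of pancreatic beta cells. There were 3 libraries labelled control and 3 labelled PP2Ac knockdown, named shc and sh2, and the labels name no other treatment, agent or time. PP2Ac is the catalytic subunit of protein phosphatase 2A. The labels do not say whether the 3 libraries of a group came from separate cultures, so the p-values measure only the spread between these libraries, which may be technical.

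Most Zfp proteins bind DNA through tandem C2H2 fingers, short folds in which cysteines and histidines hold a zinc ion, and each finger reads a few neighbouring bases. A large class also carries a KRAB box, a segment that recruits the corepressor Trim28 and through it histone methyltransferases, heterochromatin proteins and histone deacetylases. KRAB zinc finger genes arose by repeated local duplication, lie in clusters of near relatives, and are known for silencing transposable elements and for protecting imprinted loci. Other members lack this box and act as promoter-bound regulators, RNA-binding proteins or ubiquitin ligases.

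Recovered reads came to 14614737 to 16030939 per library, and 21421 to 21690 genes had a read in the control libraries against 19560 to 19960 in the knockdown libraries. Ppp2ca, which encodes the targeted subunit, fell from 37.6 ± 4.33 FPKM (SD, n = 3) in control to 10.8 ± 0.617 (n = 3) in knockdown, and the exact permutation test gave 0.1, the smallest p that 3 against 3 allows. Of 20 beta cell markers 10, Ins1 and Ins2 among them, were at 0 in all libraries and 17 had a mean below 1. The summed level of the 20 was 5.10 to 6.98 FPKM in control and 10.8 to 12.3 in knockdown. The 3 tested, Mafa, Pdx1 and Pax6, were at 1.78, 1.68 and 2.29 FPKM in control. In knockdown they were at 4.86, 3.96 and 2.49 FPKM, and Mafa and Pdx1 rose while Pax6 did not pass. The absence or low level of most of these markers goes against the label of a beta cell line, and MIN6 is used here as the label only. Of 22 markers of other pancreatic and stromal cells 7 were at 0 and 12 below 1, and their summed level was 1275 to 1481 FPKM in control and 1505 to 1695 in knockdown. Of 10 of these markers tested 6 rose and 3 fell. The mesenchymal genes Vim, Col1a1 and Col3a1 rose from 426, 9.95 and 0.834 to 952, 86.9 and 31.7 FPKM. Pdgfra, Pdgfrb and Cela1 also rose, whereas Fn1, at 130 FPKM in control and 138 in knockdown, did not pass and its groups overlapped. Cd68, Sox9 and Spp1 fell from 16.5, 7.89 and 760 to 2.27, 1.62 and 371 FPKM. The part of these differences in the Zfp results was not tested.

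More Zfp members were lower than higher in the knockdown libraries. A gene counts as higher or lower when its adjusted p in limma, a linear model with a shared estimate of the spread, was below 0.05 over all 11652 tested genes. By this rule 87 of the 236 members fell, 52 rose and 97 did not pass. Among all tested genes 62.4% passed, 29.1% fell and 33.3% rose, so the share of members that fell, 36.9%, lay above that background and the share that rose, 22.0%, below it. Fold changes are differences of mean log2(FPKM + 1), knockdown minus control, a scale that understates the change of low genes. Their median was -0.11 over the members and 0.03 over all tested genes. In bulk RNA, fewer cells of a type and less RNA per cell cannot be told apart.

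The balance differed with the level of the genes. Of the 139 members with a mean of 1 to 5 FPKM, 59 fell and 19 rose, with a median of -0.22. Among all tested genes of that level 31.0% fell and 24% rose, with a median of -0.08. Of the 97 members at 5 FPKM or more, 28 fell and 33 rose, with a median of 0.02. These shares, 28.9% and 34.0%, were near those of all tested genes of that level, 28.1% and 38.0%, whose median was 0.08. In 19 members a group mean lay below 1, so they had passed the limit through the other group, and 12 of them fell and 2 rose. The 217 members with both group means at 1 or more numbered 75 that fell and 50 that rose, with a median of -0.10. The libraries of the groups did not overlap in 103 members that were lower and 67 that were higher, where 31.7% and 36.4% of all tested genes, 68.1% in all, were so separated.

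**Figure D1:**
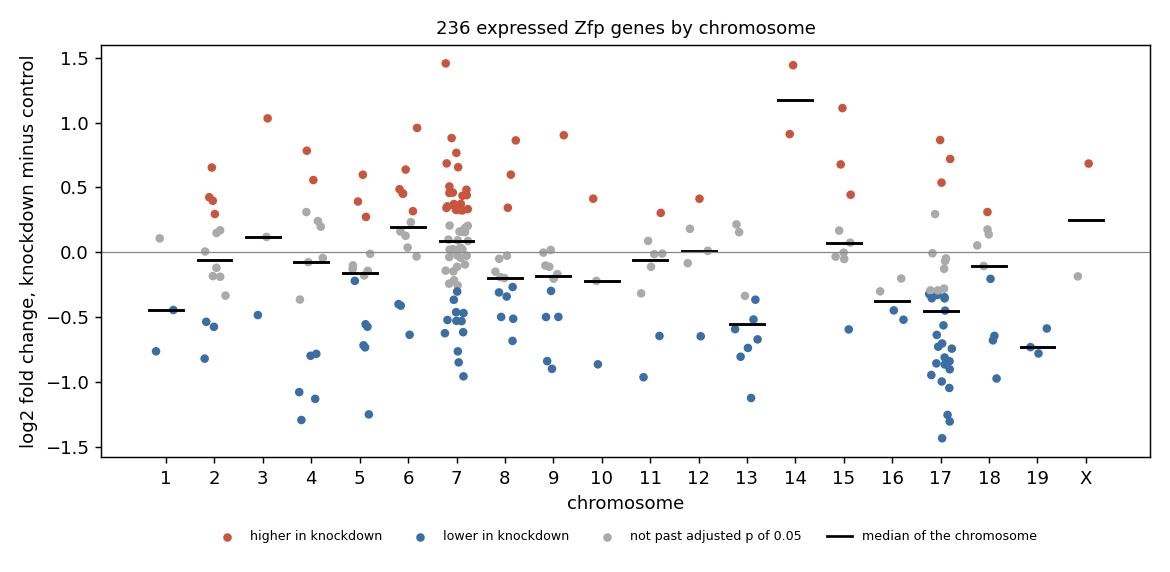
Each point is 1 of the 236 expressed Zfp genes, placed by chromosome (horizontal axis) and by log2 fold change, knockdown minus control (vertical axis). Black bars are medians. On chromosome 17, 23 of 35 members fell. On chromosome 7, 19 of 59 members rose and 12 fell. The share that rose there, 32.2%, is near the 33.3% of all tested genes.

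Chromosome 17 held the largest number of members that fell. Of its 35 members 23 fell and 3 rose, with a median of -0.45, whereas the 558 other tested genes of the chromosome included 132 that fell and 206 that rose, with a median of 0.09. The region from 14 to 24 Mb was singled out with results of these data known, so its counts are a description. It held 15 members, of which 13 fell, 1 rose and 1 did not pass, with a median of -0.81. The other 38 tested genes of that region numbered 17 that fell and 8 that rose, with a median of -0.38. Between Zfp160 and Zfp945 lay 14 members and 2 other tested genes, Gm10226 and Gm7072, and both of these fell as well.

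These 14 neighbours, from Zfp160 at chr17:21008903-21043070 to Zfp945 at chr17:22846697-22867134 (build GRCm38), had a summed level of 44.9, 45.2 and 48.1 FPKM in the control libraries. In the knockdown libraries the sum was 19.2, 17.7 and 22.4 FPKM, or 42.9% of control. All 14 encode proteins in which the KRAB pattern was found, with 9 to 19 fingers each. In 4 of them, Zfp983, Zfp229, Zfp994 and Zfp945, the knockdown mean lay below 1 FPKM, so they had passed the limit on expression through the control group.

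Zfp948 (chr17:21567008-21588699, plus strand) was the most abundant of them and had 15 fingers. Its level was 10.5, 10.6 and 11.6 FPKM in control and 3.34, 2.54 and 4.52 FPKM in knockdown. Every knockdown library lay far below every control library, and the difference was -1.44 (SE 0.148) on the log2 scale. Zfp760 (chr17:21707741-21725636, plus strand) gave 4.28, 4.59 and 4.65 FPKM in control and 1.15, 1.04 and 1.51 in knockdown, a difference of -1.31 (SE 0.107). Zfp945 (minus strand) gave 2.22, 2.19 and 2.05 FPKM in control and 0.299, 0.289 and 0.375 in knockdown. This was 14.9% of its control level, the lowest share in the region, although its difference on the compressed scale was -1.26 (SE 0.116).

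Zfp820 gave 2.57, 3.17 and 3.64 FPKM in control and 0.887, 1.21 and 1.08 in knockdown, a difference of -1.0 (SE 0.129). Zfp994 gave 2.00, 1.81 and 2.22 FPKM in control and 0.570, 0.736 and 0.672 in knockdown, a difference of -0.86. Zfp944 gave 3.37, 2.66 and 3.13 FPKM in control and 1.16, 0.985 and 1.54 in knockdown, a difference of -0.87. In these 3 genes the groups did not overlap, and the knockdown means were 32.8% to 40.2% of control. Zfp51, Zfp942, Zfp995, Zfp160, Zfp946, Zfp229 and Zfp983 had differences of -0.84, -0.81, -0.70, -0.64, -0.56, -0.45 and -0.36. Zfp983 had the largest adjusted p of the 13, 0.0306 in limma, and its call was lost with no filter on low values, with the replicate number as a block, and when any library other than control replicate 3 was left out. Some reads of Zfp994, Zfp995 and Zfp944 could belong to relatives, since 18.2%, 13.4% and 10.4% of their 50-base stretches also occurred in transcripts of other genes.

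A pair of genes in the region went against the rest. Zfp53, which lies between Zfp51 and Zfp948 and has 15 fingers, gave 4.30, 3.89 and 4.37 FPKM in control and 3.71, 4.20 and 3.93 in knockdown. Its groups overlapped and the difference of -0.07 (SE 0.0824) did not pass, with an adjusted p of 0.491 in limma. Zfp213 (chr17:23556767-23564238, minus strand) stands apart from the others at the distal end. The KRAB pattern was not found in Zfp213, which does not show that the gene lacks a KRAB box. Zfp213 rose from 1.35, 1.34 and 1.54 FPKM to 3.56, 3.50 and 3.12, a difference of 0.86 (SE 0.0967), and its groups did not overlap.

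**Figure D2:**
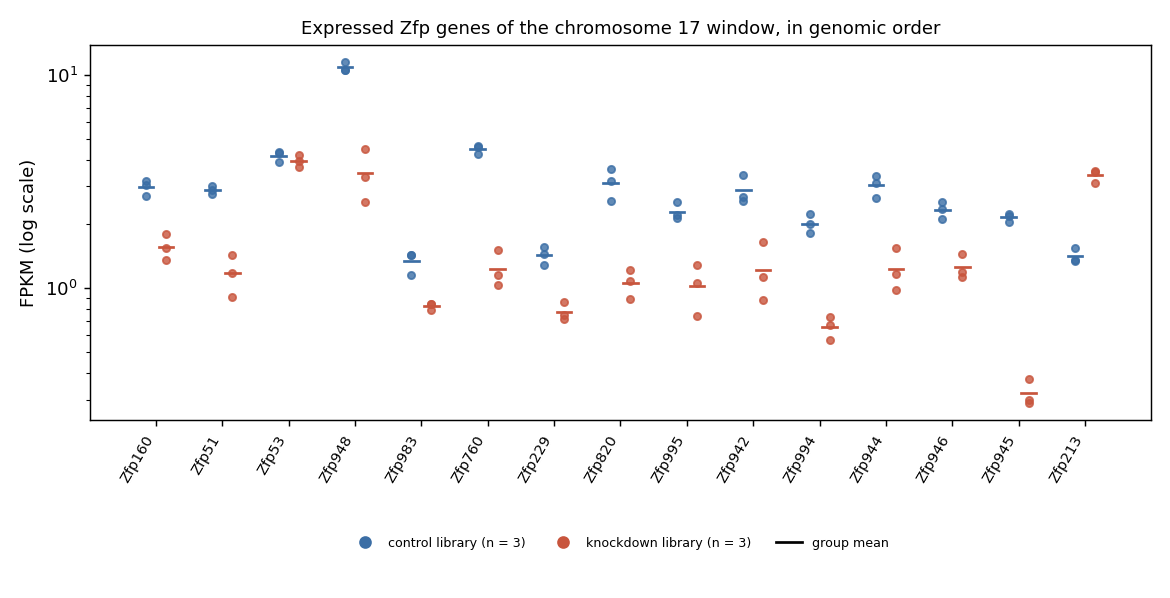
FPKM of the 15 expressed Zfp genes of chromosome 17 from 14 to 24 Mb on a log axis, in genomic order; points are libraries (3 per group) and bars are group means. Knockdown points lie below control points in every gene except Zfp53, where the groups overlap, and Zfp213, where they lie above.

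Promoters of the 2 genes with the largest differences in the region and of Zfp213, the one that rose, are shown as examples of members with opposite direction. They are RefSeq sequences of build GRCm38.p6, from 250 bases before to 50 after the start of the gene, with CG dinucleotides in capitals. The Zfp948 stretch (chr17:21566728-21567027, plus strand) held 10 CG dinucleotides, that of Zfp760 (chr17:21707491-21707790, plus strand) held 12 and that of Zfp213 (chr17:23564177-23564476, minus strand) held 24. This number did not follow direction throughout the region. Promoters of Zfp944 and Zfp942, which fell, held 22 and 20, and that of Zfp53, which did not pass, held 9.
Zfp948: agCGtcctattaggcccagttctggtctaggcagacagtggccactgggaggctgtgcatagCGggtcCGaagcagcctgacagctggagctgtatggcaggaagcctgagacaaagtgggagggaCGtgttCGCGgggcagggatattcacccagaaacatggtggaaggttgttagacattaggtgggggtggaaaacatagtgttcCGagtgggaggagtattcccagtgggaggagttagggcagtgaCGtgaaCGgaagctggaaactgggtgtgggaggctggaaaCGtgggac
Zfp760: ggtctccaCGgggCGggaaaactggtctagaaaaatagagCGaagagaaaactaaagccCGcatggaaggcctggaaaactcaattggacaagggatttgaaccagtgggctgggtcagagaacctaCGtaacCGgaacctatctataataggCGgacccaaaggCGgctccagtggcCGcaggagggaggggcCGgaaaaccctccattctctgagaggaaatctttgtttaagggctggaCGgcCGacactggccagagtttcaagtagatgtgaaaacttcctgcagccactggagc
Zfp213: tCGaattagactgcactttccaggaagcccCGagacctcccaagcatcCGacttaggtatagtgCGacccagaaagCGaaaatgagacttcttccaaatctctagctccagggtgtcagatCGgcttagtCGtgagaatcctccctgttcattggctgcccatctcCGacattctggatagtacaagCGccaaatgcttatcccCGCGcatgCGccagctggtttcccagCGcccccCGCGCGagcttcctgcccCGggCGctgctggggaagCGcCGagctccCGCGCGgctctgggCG

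CG content differed between the classes of members. A promoter of this length was found for 195 of the 236 members and 8233 of the 11652 tested genes, and the median number of CG dinucleotides was 15 over the members against 22 over the tested genes. Members that fell had a median of 12 and members that rose a median of 20. The median was 11 where the KRAB pattern was found and 21, near that of the tested genes, where it was not. Over all 32851 promoters of this length, whether of tested genes or not, it was 7.

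The promoters were searched on both strands for 8 motifs, the E-box CACGTG, the cAMP response element TGACGTCA, the CCAAT box CCAAT, the GC box GGGCGG, the ETS motif CCGGAAGT, the YY1 motif, the NRF1 motif and the TATA box TATAAA. The E-box was picked out after the counts had been seen. It occurred in 5 of the 12 promoters found for the members of the region that fell, or 41.7%, against 10.8% of tested genes and 7.15% of all promoters of this length. Over all members it occurred in 7.69%. The 5 stretches, with the E-box in capitals, are shown because they resemble each other beyond the motif.
Zfp820: gtttaggggaacCACGTGaccataaccagc
Zfp942: cgttagcgctgtCACGTGaccggaaccgtg
Zfp944: cgttagcgctgtCACGTGaccggaaccgtg
Zfp994: gtttgggggaacCACGTGaccctaagtatg
Zfp946: tttggggggaacCACGTGaccggaaccggg

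The stretches of Zfp942 and Zfp944 were identical over these 30 bases, so the 5 matches are not independent of the duplications that made these genes. The motif began 119, 54, 29, 160 and 10 bases before the start site of Zfp820, Zfp942, Zfp944, Zfp994 and Zfp946. A match of letters is a description and does not show that a factor binds there. In the promoters of Zfp948, Zfp760 and Zfp945, which had the largest differences, the E-box letters were not present.

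Beyond this region, neighbouring members often moved in the same direction. Runs of at least 3 members with starts at most 1 Mb apart formed 20 clusters that held 126 members. Of these 46 fell and 29 rose, or 36.5% and 23.0%. The shares were close to those of the 110 members outside clusters, of which 41 fell and 23 rose, or 37.3% and 20.9%. Of 118 pairs of adjacent members within 1 Mb, 87 had differences of the same sign, or 73.7%, and 74 of 104, or 71.2%, without the chromosome 17 region. Among all tested genes the share was 57.6% of 11019 pairs.

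**Figure D3:**
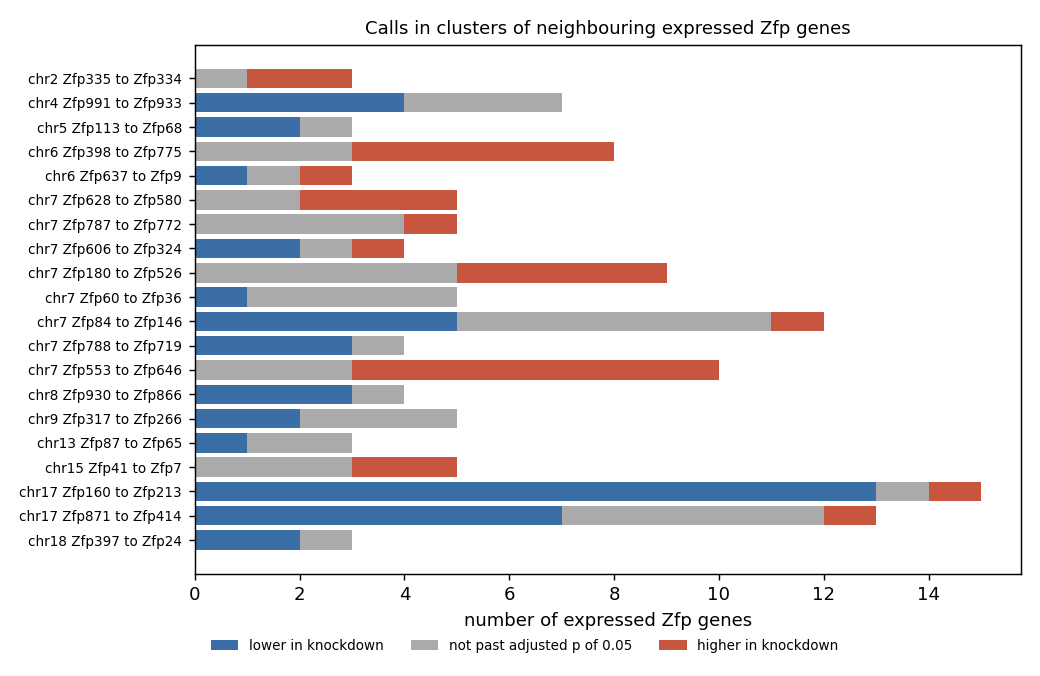
Horizontal bars give the number of expressed Zfp genes in each of 20 chromosomal clusters that were lower, not past the threshold or higher in knockdown. The cluster from Zfp160 to Zfp213 has 13 lower members of 15, and that from Zfp553 to Zfp646 has 7 higher members of 10.

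The chromosome 17 cluster from Zfp871 to Zfp414, near 33 Mb, also had mostly lower members, 7 of 13 with 1 higher. Zfp871 fell from 13.5, 12 and 15.8 FPKM to 6.18, 5.2 and 7.04, a difference of -1.05 (SE 0.123). Zfp101 fell from 2.72, 3.28 and 3.50 FPKM to 1.33, 0.906 and 1.24, a difference of -0.95. The relatives Zfp955a and Zfp955b fell by 0.84 and 0.90 on the log2 scale, with 51.8% and 31.4% of their stretches shared with other transcripts, so their separate values are uncertain. Zfp414, at the edge of this cluster and without the KRAB pattern, has 26.3% of its stretches in other transcripts and rose from 5.55 ± 0.877 FPKM to 9.77 ± 1.29 (SD, n = 3 each).

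The chromosome 4 cluster from Zfp991 to Zfp933 had 4 lower members of 7 and no higher one. Zfp933 fell from 5.61, 6.13 and 6.55 FPKM to 1.94, 2.26 and 2.52, and shared only 1.05% of its stretches with other genes. Zfp984 fell from 8.54, 5.42 and 6.86 FPKM to 2.09, 2.00 and 2.53, but 54.5% of its stretches were shared. For Zfp991 and Zfp978, at 82.2% and 77.4%, the reads may have been split between copies.

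Several clusters on chromosomes 6 and 7 had more higher than lower members. From Zfp553 to Zfp646 on chromosome 7, 7 of 10 members rose and none fell. Zfp771, with 8 fingers, rose from 21.1, 20.8 and 19.1 FPKM to 28.9, 30.7 and 26.8, and the groups did not overlap. Zfp689 rose from 0.742, 1.21 and 1.26 FPKM to 1.98, 2.49 and 2.48. The other 16 tested genes there numbered 7 that rose and 1 that fell. From Zfp398 to Zfp775 on chromosome 6, 5 of 8 members rose and none fell. The other 6 tested genes there numbered 1 that rose and none that fell. On chromosome 7, 4 of 9 members from Zfp180 to Zfp526 rose and none fell, and so did 9 of the 15 other tested genes there, of which 4 fell. From Zfp628 to Zfp580, 3 of 5 members and 2 of 3 other tested genes rose. The chromosome 7 cluster from Zfp84 to Zfp146 differed, with 5 lower and 1 higher of 12, so members of this chromosome did not share a direction. On chromosome 13, 7 of 10 members fell and none rose, but they were spread over the chromosome.

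Members were then divided by a feature of the protein that the choice of members had not used. The KRAB A-box was sought as a pattern of residues ahead of the first finger in translated GENCODE coding sequences. It was found in 112 members, of which 56 fell, 14 rose and 42 did not pass, with a median of -0.32. Without control replicate 1, and also without knockdown replicate 1, only 8 of these members rose. In the 121 members where the pattern was not found 30 fell, 36 rose and 55 did not pass, with a median of 0.02, near the 0.03 of all tested genes. After removal of mitochondrial genes, rRNA and Gm23935 these were 37 that fell and 35 that rose, with a median of -0.04. Of the 3 members with no coding sequence 2 rose and 1 fell.

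Members with the KRAB pattern were also present at lower levels, with a median mean of 2.29 FPKM against 6.58 for those without. Split by level, 42 fell and 10 rose of the 92 with the pattern at 1 to 5 FPKM, with a median of -0.30, against 16 and 8 of 45 without it, with a median of -0.09. At 5 FPKM or more, 14 fell and 4 rose of 20 with the pattern, with a median of -0.63, against 14 and 28 of 76 without it, with a median of 0.09. At both levels the median was lower with the pattern than without it. Outside the chromosome 17 region 43 of 98 members with the pattern fell and 14 rose, and away from chromosome 17 altogether 35 of 84 fell and 14 rose, with a median of -0.21.

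**Figure D4:**
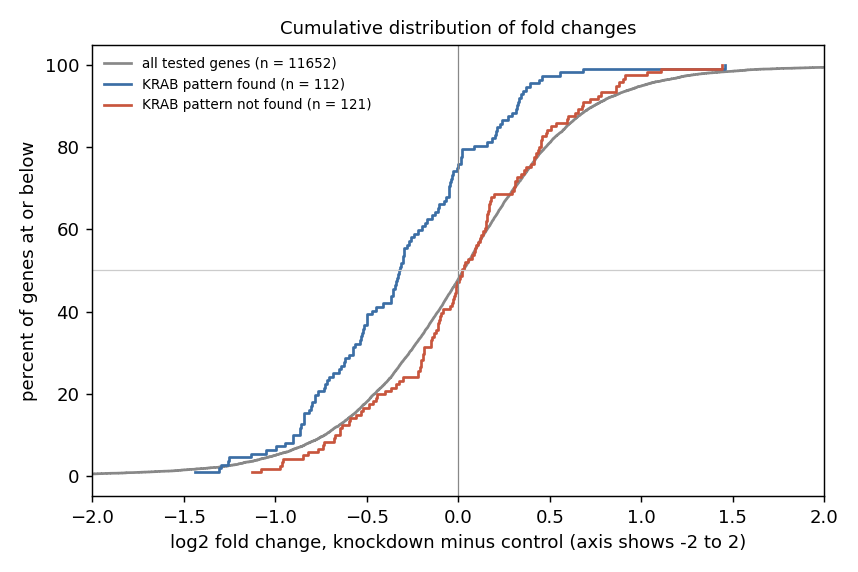
Cumulative percent of genes (vertical axis) at or below each log2 fold change (horizontal axis, shown from -2 to 2) for all 11652 tested genes, the 112 members with the KRAB pattern and the 121 without. The curve for the KRAB pattern is shifted to the left, with a median of -0.32, and the curve without it follows that of all tested genes.

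Members with the KRAB pattern outside clusters fell as well, 17 of 26 with 3 higher and a median of -0.51, against 39 of 86 in clusters with 11 higher and a median of -0.27. Finger number went along with the KRAB class: the median was 11 fingers with the pattern and 7 without. Of 8 members in which no C2H2 finger was found 3 rose and none fell. With 1 to 4 fingers 11 of 37 fell and 11 rose, or 29.7% each. With 5 to 9 fingers 25 of 74 fell and 15 rose, or 33.8% and 20.3%. With 10 to 14 fingers 32 of 72 fell and 16 rose, or 44.4% and 22.2%. With 15 or more 18 of 42 fell and 5 rose, or 42.9% and 11.9%. Among all tested genes 29.1% fell and 33.3% rose. The KRAB pattern was found in 4 of the 37, 31 of the 74, 50 of the 72 and 27 of the 42, so these divisions share many genes.

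The 10 largest rises were led by Zfp324, a member with the KRAB pattern on chromosome 7 and an exception in its class. It gave 1.53, 1.80 and 1.44 FPKM in control and 6.12, 6.43 and 5.75 in knockdown, a difference of 1.46 (SE 0.091; adjusted p = 9.32e-06, limma). Zfp219, a transcriptional regulator with 9 fingers, gave 6.94, 8.22 and 6.69 FPKM in control and 22.9, 21.2 and 20.2 in knockdown, a difference of 1.44 (SE 0.0889). It overlaps 2 other tested genes on chromosome 14, and reads of overlapping genes cannot be assigned here because the strand setting is unknown.

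Zfp385a, a zinc finger protein that binds RNA and p53, gave 25.1, 24.7 and 21.1 FPKM in control and 53.8, 57.3 and 45.7 in knockdown. It was the most abundant gene among the 10 rises. Its lowest knockdown library was well above its highest control library, though the choice of these genes required groups without overlap. Zfp687, Zfp862-ps, Zfp395, Zfp651, Zfp428, Zfp213 and Zfp358 completed the list with differences of 1.03, 0.96, 0.91, 0.90, 0.88, 0.86 and 0.86. Of the 9 protein-coding genes in it the KRAB pattern was found only in Zfp324.

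Of the 10 largest falls 4 lay in the chromosome 17 region, Zfp948, Zfp760, Zfp945 and Zfp820. Zfp655, a KRAB member of chromosome 5 with 6 fingers, gave 15.2, 14.9 and 14.2 FPKM in control and 5.23, 5.52 and 6.11 in knockdown, a difference of -1.25 (SE 0.0748; adjusted p = 8.28e-06, limma). Zfp131, a BTB domain transcription factor, gave 22.6, 21.5 and 23.0 FPKM in control and 9.04, 8.94 and 11.3 in knockdown, a difference of -1.12 (SE 0.0936), and it overlaps 1 other tested gene. Zfp292, a long protein with 14 fingers, gave 4.71, 4.53 and 5.31 FPKM in control and 1.57, 1.61 and 2.15 in knockdown. In these 3 genes the control libraries lay close together. The knockdown libraries were all lower, which the choice of these genes required. The KRAB pattern was not found in Zfp131 and Zfp292, and it was found in the other 8 of the 10.

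**Figure D5:**
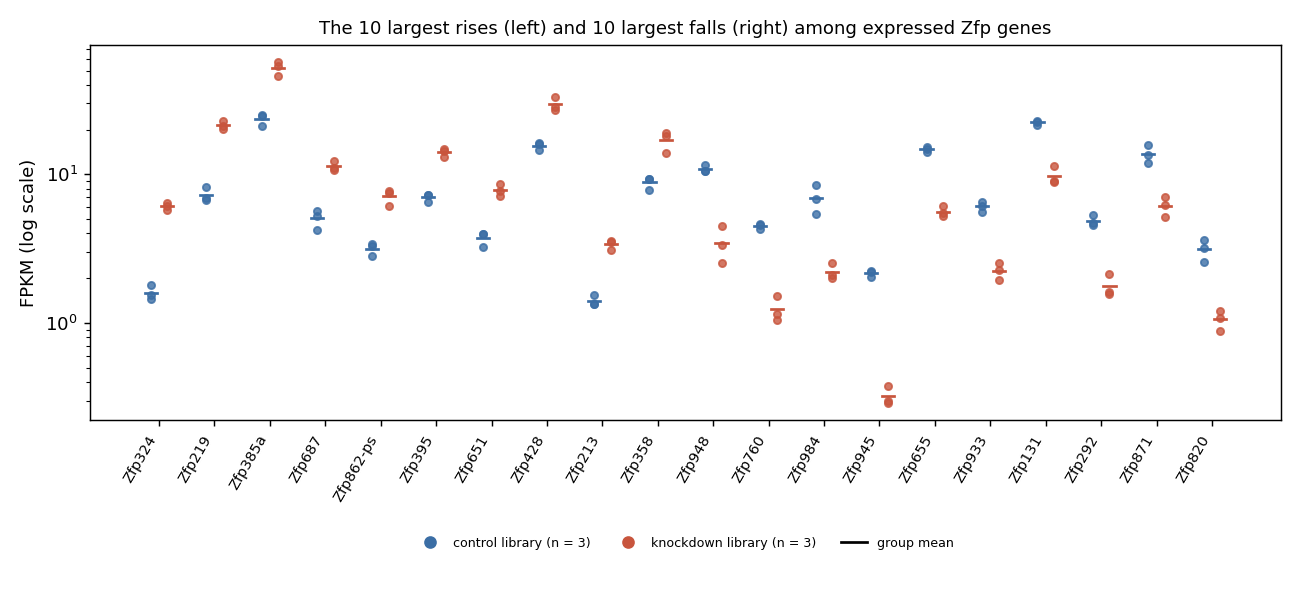
FPKM on a log axis of the 10 expressed Zfp genes with the largest rises (left) and the 10 with the largest falls (right); points are libraries (3 per group) and bars are group means. In none of the 20 genes do control and knockdown points overlap, which the choice of these genes required.

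Members with known roles were listed with earlier results of these data known, so the counts of these lists are a description. In the list of repressors of imprinted genes and retroelements the tested members were lower. Of 11 genes in that list 5 were expressed, and all 5 fell, with a median of -0.73. For comparison, 29.1% of all tested genes fell, and so did 56 of the 112 members with the KRAB pattern. Zfp57, which protects methylation at imprinting control regions, fell from 11.4, 12.7 and 11.4 FPKM to 6.47, 6.11 and 7.71. Zfp445, which acts with Zfp57 at imprints, fell from 11.9, 11.5 and 12.9 FPKM to 6.31, 5.51 and 7.22. In both the groups did not overlap, and the differences were -0.73 (SE 0.093) and -0.84 (SE 0.0966). Zfp568, a repressor of a placental Igf2 transcript, fell from 8.72, 9.05 and 9.81 FPKM to 5.36, 4.88 and 4.76. Zfp809, which silences retroviruses, fell by 0.30, and Zfp932, a repressor of endogenous retroviruses that shares 37.0% of its stretches with other genes, fell by 0.73.

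The CCCH proteins, which bind AU-rich elements and promote mRNA decay, share the Zfp symbol but not the C2H2 finger. Zfp36l2 was the most abundant member of all, at 130, 129 and 139 FPKM in control and 138, 130 and 128 in knockdown. Its groups overlapped and the difference was -0.01 (SE 0.0679; adjusted p = 0.924, limma). Zfp36l1 rose from 5.98, 5.37 and 7.48 FPKM to 8.72, 8.50 and 8.62, a difference of 0.41 (SE 0.106). Zfp36 was at 5.25 ± 0.496 FPKM in control and 5.97 ± 0.222 in knockdown (SD, n = 3 each; adjusted p = 0.125, limma).

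Of 12 tested genes listed as RNA, ribosome or spindle factors 7 fell and 1 rose, with a median of -0.27. These shares, 58.3% and 8.3%, stand beside 29.1% and 33.3% of all tested genes, in a list of few genes. Zfp598, a ubiquitin ligase that senses collided ribosomes, fell from 71.9 ± 5.10 to 57.2 ± 2.67 FPKM (n = 3 each). Zfp622, a factor of large ribosomal subunit assembly, fell from 25 to 16.2 FPKM. Zfp346, which binds double-stranded RNA, fell from 22.4, 21.1 and 20.9 FPKM to 14.1, 13.1 and 12.1. Zfp830 fell from 11.9, 13.8 and 12.8 FPKM to 7.85, 7.31 and 8.33. Zfp207, a spindle and kinetochore protein, was at 23.7 FPKM in control and 23.5 in knockdown (adjusted p = 0.873, limma). Zfp385a was the member that rose. Zfp871 had been placed in this list but carries the KRAB pattern. It is 1 of the 7 that fell, with the largest fall of the list, -1.05, and the shares and median above include it.

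Regulators bound at promoters and in development were divided evenly. Of 19 tested 6 rose and 6 fell, or 31.6% each, with a median of 0.00, close to the 33.3% and 29.1% of all tested genes. Zfp687, Zfp592 and Zfp532, which form a complex, rose by differences of 1.03, 0.32 and 0.31. Zfp703, a corepressor, rose from 17.9 to 27.6 FPKM. Zfp143, an activator bound at many promoters, Zfp148 and Zfp281, which bind GC-rich promoters, fell by 0.37, 0.52 and 0.45. Zfp608 fell from 10.5, 10.4 and 11.6 FPKM to 4.95, 4.48 and 5.66, a difference of -0.97 (SE 0.0917).

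In the small list of ubiquitin, SUMO and signalling factors 4 of 5 tested genes fell and 1 rose, with a median of -0.59. Of all tested genes 29.1% fell and 33.3% rose, and 5 genes are too few to set a share against these. Zfp91, a ubiquitin ligase, fell from 20.9, 19.5 and 21.2 FPKM to 13.1, 13.0 and 13.7. Zfp451, a SUMO ligase, fell from 5.98, 5.87 and 6.12 FPKM to 3.14, 2.73 and 3.50. The groups were well separated in both. Zfp369 and Zfp110, relatives that interact with a neurotrophin receptor, fell by 0.59 and 0.47, and Zfp365 rose from 10.4, 9.85 and 11.2 FPKM to 14.6, 14 and 14.3.

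The proteins through which KRAB zinc fingers act were listed for comparison. All 30 genes of that list were tested, and 12 rose, 11 fell and 7 did not pass, with a median of 0.08. The shares of 40.0% and 36.7% were near the 33.3% and 29.1% of all tested genes. Trim28, the corepressor that binds the KRAB box, rose from 89.7 ± 6.20 to 184 ± 14.6 FPKM (SD, n = 3 each), a difference of 1.03. Setdb1, the histone methyltransferase that Trim28 recruits, was at 15.6 FPKM in control and 13.4 in knockdown (adjusted p = 0.0595, limma). Its difference of -0.21 passed the threshold after mitochondrial and rRNA genes were removed, with library-total scaling, with voom and without knockdown replicate 1.

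The histone methyltransferases Ehmt2 and Suv39h1 rose by differences of 0.95 and 1.03, and the chromatin remodeller Chd3 by 0.61. Resf1, a Setdb1 partner, and Morc2a, a silencing ATPase, fell by 0.86 and 0.70. Of the HUSH silencing complex, Mphosph8 and Fam208a fell by 0.89 and 0.57, and Pphln1 rose by a difference of 0.33.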

How the data were processed

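The authors deposited 1 table of FPKM values for 3 control and 3 knockdown libraries with gene positions. Genome builds GRCm38 and mm10 are given per the submitters' processing notes, while aligner, counter and strandedness were not given in the sources used here. FPKM times gene length gave whole reads, within 0.01 of a whole number, for 100% of non-zero values. Groups follow the genotype labels.

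Genes averaging 1 FPKM or more were tested with limma 3.58.1 in R 4.3.3 (lmFit, eBayes with a trend) on log2(FPKM + 1), with Benjamini-Hochberg adjustment over all tested genes and a threshold of 0.05. The script was tested on simulated data with known changes. Counts and medians were made in Python 3.11.15 (pandas 2.3.3, numpy 2.4.6) and figures with matplotlib 3.10.9. Role lists, members and the chromosome 17 region were chosen with earlier results of these data known. Named genes were Ppp2ca, all members of that region, the 10 largest rises and falls among called members without overlap, up to 4 members per role list by smallest p, up to 6 corepressor genes by smallest p with Trim28 and Setdb1, and the 2 members nearest to the limit on each side. Further genes were named from the clusters, the lists and the levels after their values had been seen.

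Fingers were counted as C, 2 to 4 residues, C, 12 residues, H, 3 to 5 residues, H in the longest translated GENCODE M21 coding sequence, in which 99.9% of the gene identifiers occur. The KRAB pattern was sought in any coding transcript because no protein table was used. A KRAB box that departs from the pattern would be missed. A first, looser pattern was tightened after its counts had been seen, because it matched proteins such as Zfp292. Shared sequence is the percent of a gene's 50-base transcript stretches that occur in another gene. Of the members 27 overlap another tested gene. Alternatives were another pseudocount, filters, scalings, limma voom on recovered reads, a fit with replicate number as a block, and the omission of each library in turn. Library-total scaling was added after seeing the data. The looser KRAB pattern, which came first, was kept as an alternative, and the tighter pattern used for the main counts was the later one.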

Additional observations from a re-analysis of the deposited data

How the results depend on the processing

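With a mean of at least 5 FPKM instead of 1, which tests fewer genes, 33 members rose and 28 fell. In the chromosome 17 region this left 1 that fell and 0 that rose, among members with the KRAB pattern 14 that fell and 4 that rose, and among members without it 14 that fell. With no filter on low values, which tests more genes, 9 members with the KRAB pattern rose. Leaving out each library in turn, which leaves fewer samples, gave 45 to 52 members that rose and 77 to 86 that fell, 12 to 13 that fell in the chromosome 17 region, and 8 to 14 that rose and 49 to 55 that fell among members with the KRAB pattern. Zfp36l2, not past the threshold in any of these, ranged from -0.039 (without knockdown replicate 1) upwards and changed sign to 0.024 without control replicate 3, 0.002 without knockdown replicate 2 and 0.012 without knockdown replicate 3.

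With voom on recovered reads 53 members rose and 95 fell, against 32.9% and 30.4% of tested genes, and after removal of mitochondrial genes, rRNA and Gm23935 these were 47 and 97, against 29.2% and 32.2% of tested genes, and members without the KRAB pattern numbered 35 that rose and 37 that fell. The looser KRAB pattern took in 115 members, of which 57 fell and 15 rose, and left 118, of which 29 fell and 35 rose. Clusters numbered 18 with a gap of 0.5 Mb and 21 with 2 Mb. Median-of-ratios scaling repeated the main values, since the deposited columns already have equal median ratios. Over all settings the median difference was -0.17 to 0.02 for the members and -0.03 to 0.08 for all tested genes. For members with the KRAB pattern it was -0.32, and -0.49 with a pseudocount of 0.1, -0.54 with voom and -0.63 at 5 FPKM or more. In the chromosome 17 region it was -0.81, and -1.20, -1.30 and -1.44 (1 gene) under these settings. Same-numbered libraries of the groups had deviations that correlated at -0.01, 0.16 and 0.05 for numbers 1, 2 and 3, so the numbers were not taken to pair them. With the replicate block 50 members rose and 87 fell, and 7363 rather than 7267 of all tested genes were called; of the named genes only the call of Zfp983 was lost. Reads behind a member in a library were as few as 7, which limits the precision of low members.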

Other observations

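Zinc finger genes of a list without the Zfp prefix, mostly Zbtb, Zscan and Zkscan genes, also fell more often than they rose. The opposite-strand gene Zbtb8os was removed from the list because it encodes no zinc finger. Of the 45 tested genes left 19 fell and 6 rose, with a median of -0.13. The shares of all tested genes were 29.1% that fell and 33.3% that rose. Zbtb genes, which pair fingers with a BTB domain, numbered 12 that fell and 5 that rose of 30. Zbtb18, a repressor in neural development, fell from 22.6 ± 1.79 to 6.44 ± 0.647 FPKM (SD, n = 3 each), a difference of -1.67 and the largest of the list, whereas Zbtb45 rose from 4.36 ± 0.565 to 11.9 ± 1.05. Zscan and Zkscan genes, in many of which a SCAN domain precedes the fingers, numbered 6 that fell and 1 that rose of 13. Zscan26 fell from 8.21 ± 0.107 to 2.83 ± 0.546 FPKM, and Zkscan17 rose from 10.3 ± 0.43 to 13.4 ± 0.773.

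Members that share sequence with other genes were counted apart. Of 33 members with at least 10% of their stretches in other transcripts 15 fell and 4 rose, with a median of -0.34. Of the 203 below that share 72 fell and 48 rose, with a median of -0.10. By comparison 29.1% of all tested genes fell, and 56 of the 112 members with the KRAB pattern fell, with a median of -0.32. How many members of each set carry the KRAB pattern was not counted, and a part of shared sequence in the falls was not tested.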
